A study of Mus musculus with 6 samples.

Results

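The genes described here are 10 genes of capillary lipid uptake and capillary identity, chosen by name out of 18194 genes with a named probe set on the array. A probe set is a group of short probes that together report 1 transcript. Every probe set annotated with exactly 1 of the symbols Gpihbp1, Lpl, Cd36, Fabp3, Fabp4, Fabp5, Rbp7, Car4, Aqp1 or Aqp7 was taken, 20 in all, and each gene was read on its brightest probe set, by the mean of the 6 arrays. All levels are log2 of the probe set intensity, and all differences are differences of such levels.

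The 6 arrays held left ventricular cells, sorted from Black Swiss males 8 to 10 weeks old, 1 week after transverse aortic constriction (TAC), which loads the ventricle with pressure, or after a sham operation, with 3 mice per surgery. For each surgery there was 1 array of cardiac fibroblasts traced by Tie2-Cre, 1 of fibroblasts not traced by Tie2-Cre and 1 of endothelial cells, for which the labels give no lineage. In Tie2-Cre mice the recombinase is driven by the Tek promoter, Tek being an endothelial receptor gene, so tracing marks cells that have, or whose precursors had, an active Tek promoter. The labels do not say whether the 3 mice of a surgery were pooled, or whether the 3 arrays of a surgery came from the same hearts. In such bulk samples fewer cells of a type and less RNA per cell cannot be told apart.

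The heart burns mostly fatty acids, and nearly all of them must cross the capillary wall. Lipoprotein lipase, the product of Lpl, is made largely by cells outside the capillary lumen and is carried to the luminal face by GPIHBP1 on capillary endothelial cells, where it splits triglycerides of circulating lipoproteins. The scavenger receptor CD36 takes up the released fatty acids, and small cytosolic carriers, the fatty acid binding proteins FABP3, FABP4 and FABP5, move them through the cell. RBP7 is a retinol carrier of the same protein family. Car4 encodes a membrane-anchored carbonic anhydrase, Aqp1 a water channel and Aqp7 a channel for water and glycerol, and in the heart all 3 are known from capillary endothelium.

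Of 12 endothelial markers 11, all except Tek, passed as higher in endothelial cells (by the limma test of the cell types), and Pecam1 stood at 13.55 and 13.43 on the endothelial arrays against 6.76 to 7.98 on the fibroblast arrays. The endothelial TAC array stood apart in also carrying fibroblast transcripts: all 12 fibroblast markers were at least 2-fold higher there than on the endothelial sham array, with a median difference of 3.03, and Col1a1 stood at 13.01 against 8.58. The summed intensity of the 12 fibroblast markers was 12.04 on the endothelial sham array, 15.67 on the endothelial TAC array and 16.93 to 17.08 on the fibroblast arrays, on the log2 scale. Heart muscle transcripts were also present on the endothelial arrays, with Myh6 at 9.38 at sham and 8.06 after TAC. Of the 7 measured adipocyte markers none lay above the median of any array, and Adipoq stood at 3.34 to 3.50. That is under the 10th percentile of every array, 3.73 to 3.94, and 2 of the 9 listed adipocyte markers were not measured. Fat cells also express Fabp4, Cd36, Lpl and Aqp7, and their part in these values was not tested. Of the 4 measured erythroid markers 1, Alas2, lay above the array median, on the endothelial arrays alone.

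Promoter windows are shown for 4 genes that were far higher in endothelial cells than in fibroblasts, so that the sequence can be read beside the levels. The RefSeq promoter table (GRCm38.p6) held windows for 6 of the 10 genes. Each line gives the 250 bases before a transcript start, 5′ to 3′ on the coding strand, with matches to the searched motifs in capitals. The motifs, sought on both strands, were the nuclear receptor half-site AGGTCA bound by PPAR and RXR receptors among others, the paired form of that site (DR1), the ETS core CCGGAA, the forkhead core TGTTTA, the homeobox core TAATTA, the GC box GGGCGG and the TATA box TATAAA.
Car4, chr11:84957504-84957753, plus strand: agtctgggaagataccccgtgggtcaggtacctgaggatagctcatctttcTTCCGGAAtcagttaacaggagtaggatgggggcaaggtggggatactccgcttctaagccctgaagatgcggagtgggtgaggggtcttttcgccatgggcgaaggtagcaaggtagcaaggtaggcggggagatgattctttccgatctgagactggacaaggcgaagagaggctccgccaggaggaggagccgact
Aqp7, chr4:41048137-41048386, minus strand: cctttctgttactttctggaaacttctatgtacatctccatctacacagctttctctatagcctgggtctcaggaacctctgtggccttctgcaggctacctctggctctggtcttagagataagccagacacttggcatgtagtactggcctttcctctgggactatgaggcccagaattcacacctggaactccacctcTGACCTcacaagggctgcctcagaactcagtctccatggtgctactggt
Rbp7, chr4:149454969-149455218, minus strand: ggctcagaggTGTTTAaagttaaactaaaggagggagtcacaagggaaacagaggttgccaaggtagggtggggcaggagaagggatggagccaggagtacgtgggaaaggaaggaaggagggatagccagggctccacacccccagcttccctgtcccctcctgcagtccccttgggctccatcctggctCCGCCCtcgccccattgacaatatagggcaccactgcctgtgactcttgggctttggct
Cd36, chr5:17835897-17836146, minus strand: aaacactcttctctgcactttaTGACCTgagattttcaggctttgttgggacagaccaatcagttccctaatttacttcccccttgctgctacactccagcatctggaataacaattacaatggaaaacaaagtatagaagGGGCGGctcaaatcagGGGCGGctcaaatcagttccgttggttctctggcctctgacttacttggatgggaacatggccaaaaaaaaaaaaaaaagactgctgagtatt

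The half-site occurred in the Cd36 window, starting 228 bases before the transcript start, and in the Aqp7 window shown, 49 bases before it. Another Aqp7 window, before a different transcript start, held the same site at 223 bases and a further half-site at 101 bases. The half-site was found in 14% of all 32851 promoter windows of this length. The Car4 window held the ETS core, read from either strand of 1 palindrome, and that core is in 12% of all windows. The Rbp7 window held the forkhead core, 240 bases before the start, which is also in 12% of windows, and 1 GC box, a motif of 32.7% of windows. The Cd36 window held 2 GC boxes. None of the 7 windows of the 6 genes held the paired half-site (0.0335% of all windows), the homeobox core (4.84%) or the TATA box (12.4%). These matches describe letters only, and no binding was measured here.

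The first comparison asks how far each gene separates endothelial cells from fibroblasts of the same ventricle. Of the 10 genes 8 were higher in endothelial cells and none passed as higher in fibroblasts, against 6.5% and 11.5% of the 12257 genes tested. Car4 and Aqp7 had the largest measured differences, 165-fold and 159-fold, but both lay below the array median on all 4 fibroblast arrays, so these sizes rest on dim values. With log2(intensity + 32) the differences were -6.67 for Car4, -6.10 for Aqp7 and -6.12 for Gpihbp1, so their order is not settled. The others were 87.7-fold for Gpihbp1, 62.1-fold for Rbp7, 60.1-fold for Cd36, 32.3-fold for Aqp1, 9.33-fold for Fabp4 and 3.26-fold for Fabp5. Fabp3 was higher on both endothelial arrays but did not pass the test, and Lpl, high on the arrays of both cell types, did not pass either. The test was limma across all 12257 detected genes, on the mean of traced and untraced fibroblasts at each surgery against the endothelial array, 2 values per cell type. A call needed a Benjamini-Hochberg adjusted p under 0.05 and a difference of 2-fold or more. The spread behind these p-values is that between samples of the 2 surgeries, which may be technical.

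**Figure D1:**
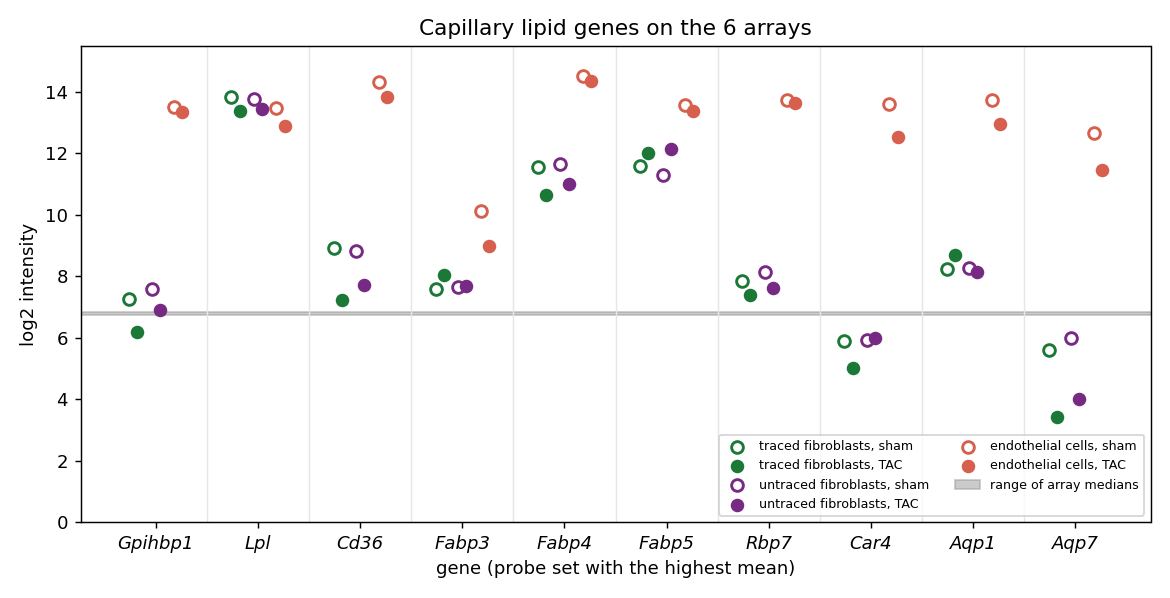
Levels of the 10 genes on the 6 arrays (y axis, log2 intensity of the probe set with the highest mean). Each point is 1 array, open for sham and filled for TAC, coloured by population, and the grey band is the range of the 6 array medians. Both endothelial points lie above all 4 fibroblast points for 9 genes, all except Lpl.

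For the partners at the capillary surface, the separation was steep on 1 side only. Gpihbp1, the lipase carrier, stood at 13.52 and 13.35 on the endothelial sham and TAC arrays, at 7.25 and 6.19 in traced fibroblasts and at 7.59 and 6.89 in untraced fibroblasts. Its groups did not overlap, and the difference of fibroblasts minus endothelial cells was -6.45 (standard error 0.365, limma adjusted p = 0.00382). Lpl, the lipase itself, stood at 13.48 and 12.88 on the endothelial sham and TAC arrays, at 13.83 and 13.38 in traced and at 13.77 and 13.44 in untraced fibroblasts. The groups overlapped, since the endothelial sham array lay above both fibroblast TAC arrays, and the difference was 0.42 with a 95% interval of -0.42 to 1.27 (limma adjusted p = 0.393). A second Lpl probe set was likewise high everywhere, at 12.42 to 13.26 in fibroblasts and at 12.56 and 12.08 in endothelial cells. Lpl was high on the arrays of both cell types on both probe sets, while Gpihbp1 lay near the array median, 6.74 to 6.85, in fibroblasts. The endothelial arrays also carried heart muscle transcripts, and the endothelial TAC array fibroblast transcripts. The part of those cells in the endothelial Lpl value was not tested.

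Cd36, the fatty acid receptor, stood at 14.32 and 13.85 on the endothelial sham and TAC arrays, at 8.93 and 7.22 in traced fibroblasts and at 8.81 and 7.72 in untraced fibroblasts. The difference was -5.91 (standard error 0.533, limma adjusted p = 0.00758). The 2 further probe sets of Cd36 gave wider gaps, of -6.10 and -6.53 at sham and of -6.80 and -6.95 after TAC. All 3 probe sets therefore placed the endothelial arrays far above the fibroblast arrays.

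The intracellular carriers differed among themselves. Fabp4, the carrier shared by capillaries and fat cells, stood at 14.53 and 14.36 on the endothelial sham and TAC arrays, at 11.57 and 10.66 in traced and at 11.64 and 11.00 in untraced fibroblasts, a difference of -3.22 (standard error 0.338, limma adjusted p = 0.00981). The size of this gap depended on the probe set. A second probe set with suffix _a_at gave -3.91 at sham and -4.52 after TAC, while the other 2 Fabp4 probe sets gave -6.56 and -7.09 at sham and -6.52 and -7.23 after TAC. On those 2 probe sets the fibroblast arrays stood at 4.70 to 7.14, near or below the array median. All 4 probe sets gave the same direction, with gaps of different size.

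Fabp5 stood at 13.56 and 13.37 on the endothelial sham and TAC arrays, at 11.58 and 12.01 in traced and at 11.30 and 12.16 in untraced fibroblasts. Its difference was -1.71 (standard error 0.309, limma adjusted p = 0.0287). Leaving out the endothelial sham array gave -1.61 (limma adjusted p = 0.0997) and leaving out the endothelial TAC array -1.80 (adjusted p = 0.0579). In every fit that leaves out an endothelial array, that arm is 1 value assumed to vary like the fibroblasts, whose values alone give the spread. Fabp3, the carrier of heart muscle, stood at 10.12 and 8.99 on the endothelial arrays and at 7.59 to 8.06 on the 4 fibroblast arrays. The difference was -1.81 with a 95% interval of -2.97 to -0.66 (limma adjusted p = 0.0546), and it passed with surgery as a block (adjusted p = 0.0175), without averaging (0.00573) and without the traced TAC array (0.0463). The fit without averaging counts traced and untraced arrays of a surgery as independent, although they may share hearts. Without the endothelial TAC array the Fabp3 difference was -2.38, with the sham array as the 1 endothelial value. Among heart muscle markers, Mb stood at 10.77 and 9.36 and Myl2 at 11.47 and 10.38 on the endothelial sham and TAC arrays, and Mb at 7.40 to 7.89 on the fibroblast arrays. TAC minus sham, all 9 markers detected in endothelial cells were below 0, from -2.07 to -0.24, with a median of -1.12, beside -1.13 for Fabp3. In traced fibroblasts 4 of 8 detected markers were above 0 and 4 below, from -0.54 to 1.74, beside 0.47 for Fabp3. In untraced fibroblasts 5 of 8 were above 0 and 3 below, from -0.83 to 1.49, beside 0.02 for Fabp3. The part of heart muscle RNA in the Fabp3 value was not tested. A second Fabp3 probe set was nearly flat, at 7.53 and 7.45 in endothelial cells and 6.91 to 7.22 in fibroblasts.

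Rbp7, the retinol carrier, stood at 13.75 and 13.65 on the endothelial arrays, at 7.84 and 7.39 in traced and at 8.13 and 7.61 in untraced fibroblasts, and it had the smallest standard error of the 10 genes, 0.270, around a difference of -5.96 (limma adjusted p = 0.00382). Car4 stood at 13.60 and 12.54 on the endothelial arrays and at 5.01 to 5.99 on the fibroblast arrays, below the array median on all 4, with a difference of -7.36 (standard error 0.433, limma adjusted p = 0.00398). Its second probe set gave -6.81 at sham and -5.99 after TAC. For the water channel gene Aqp1 the endothelial arrays read 13.75 and 12.96 and the fibroblast arrays 8.16 to 8.69, a difference of -5.01 (standard error 0.342, limma adjusted p = 0.00493). Aqp7, the glycerol channel gene, stood at 12.66 and 11.47 on the endothelial arrays and at 5.59 and 3.41 in traced and 5.98 and 4.003 in untraced fibroblasts, a difference of -7.31 (standard error 0.820, limma adjusted p = 0.0108). On the traced TAC array Aqp7 was under the 10th percentile.

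**Figure D2:**
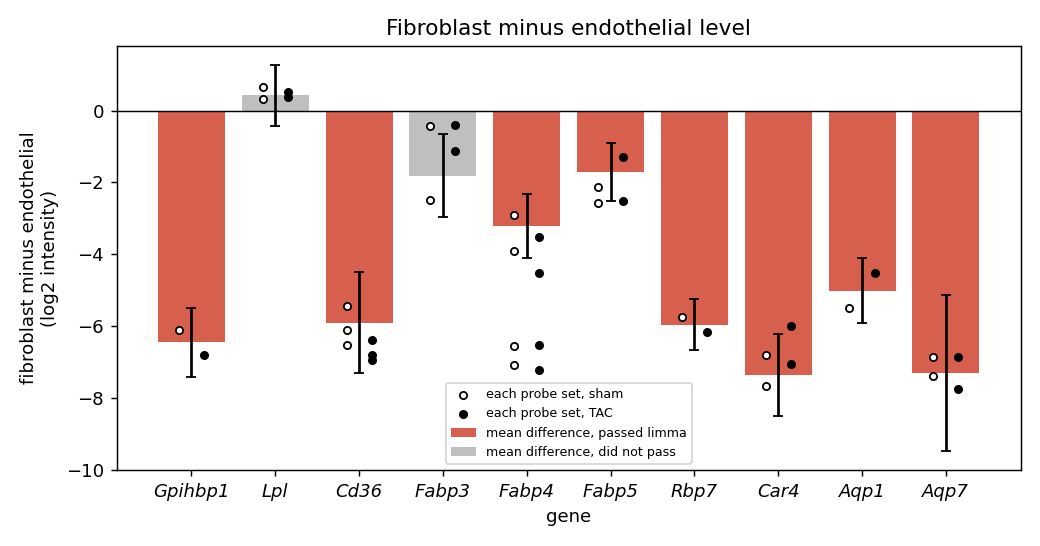
Fibroblast minus endothelial difference of the 10 genes (y axis, log2 intensity). Bars are the mean over both surgeries with 95% limma intervals, red where the gene passed and grey where it did not, and points are the single probe sets at sham (open) and after TAC (filled). The bars reach -7.36 for Car4, lie at 0.42 for Lpl, and the 4 Fabp4 probe sets spread from -2.92 to -7.23.

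In all, both endothelial arrays lay above all 4 fibroblast arrays for 9 of the 10 genes, against 19.9% of all detected genes. Car4 and Aqp7, among the 9, counted as detected through the endothelial arrays alone. The same held for 18 of the 20 probe sets, which are repeated readings of the 10 genes, and the share over all probe sets was not counted. Both exceptions were the Lpl probe sets. The gap between the cell types was narrower after TAC than at sham for 4 genes: Fabp3 (-2.50 at sham and -1.13 after TAC), Fabp5 (-2.12 and -1.29), Car4 (-7.68 and -7.04) and Aqp1 (-5.49 and -4.53). It was wider for the other 6, among them Cd36 (-5.44 and -6.38) and Gpihbp1 (-6.10 and -6.81). The share of all genes with a narrower gap was not counted, so these counts say nothing particular about the 10 genes. For Aqp7 the probe sets disagreed (-6.87 and -7.76 on the main, -7.40 and -6.86 on the other), as they did for Lpl (0.32 and 0.53 on the main, 0.65 and 0.38 on the other). The second Fabp3 and Fabp5 probe sets hardly moved (-0.43 and -0.40, and -2.57 and -2.53).

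The genes that work beside these 10 were split between the cell types. Among the lipase partners and lipoprotein receptors 2 of 11 detected genes were higher in endothelial cells and 3 in fibroblasts, and the shares of all genes for this and the following lists are again 6.5% and 11.5%. The HDL receptor gene Scarb1 was on the endothelial side (-4.14, limma adjusted p = 0.00997), with Angptl8, which encodes a regulator of the lipase, at -1.23 (adjusted p = 0.046). Angptl8 did not pass with centred arrays, with quantile normalization, with log2(intensity + 32) or with any of 3 arrays left out, at adjusted p of 0.0501 to 0.102. The receptor genes Lrp1 (4.80, adjusted p = 0.0183) and Vldlr (4.32, adjusted p = 0.0127) and the syndecan gene Sdc4 (4.11, adjusted p = 0.0254) were on the fibroblast side. Of 14 genes of fatty acid transport and activation 3 were higher in endothelial cells, all of them genes of caveolae: Cav2 (-4.87), Cav1 (-3.52) and Cavin2 (-3.07). The acyl-CoA synthetase gene Acsl3 was the 1 gene of that list on the fibroblast side (1.55, limma adjusted p = 0.0215).

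Among 10 detected regulators of lipid genes 3 were higher in endothelial cells: Tcf15 (-5.19, limma adjusted p = 0.0065) and Meox2 (-2.81, adjusted p = 0.0289), transcription factor genes known as partners in cardiac capillary fatty acid uptake, and Pparg, the lipid-sensing nuclear receptor gene (-4.37, adjusted p = 0.00499). Pparg stood at 10.96 and 10.87 on the endothelial arrays and at 6.23 to 6.92 in fibroblasts. Cebpa (2.54) and Cebpb (2.63) were higher in fibroblasts. Of 18 genes of fatty acid use and lipid droplets 3 were higher in endothelial cells, namely the lipase genes Mgll (-3.69), Lipe (-3.21) and Pnpla2 (-1.81), and 1 was higher in fibroblasts, G0s2, an inhibitor of the lipase that Pnpla2 encodes (4.84, limma adjusted p = 0.0138). When the endothelial sham array was left out, Meox2 (adjusted p = 0.11), Pnpla2 (0.0732), G0s2 (0.0623) and Acsl3 (0.0594) no longer passed, and Meox2 also did not pass without the endothelial TAC array (0.0516). Averaging its probe sets raised the adjusted p of Pnpla2 to 0.0585, so that it did not pass.

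Most relatives of the 10 genes were not detected. Of 13 measured other genes of the FABP and retinoid carrier families 3 were detected, meaning above the array median on at least 1 array, and 1 passed: Rbp4, which encodes the secreted retinol carrier, higher in fibroblasts (4.25, limma adjusted p = 0.0135). Of 10 other aquaporin genes 2 were detected, Aqp2 with a difference of 0.13 and Aqp6 with 0.00, and neither passed. Of 15 other carbonic anhydrase genes 7 were detected, with Car7 (-3.78, limma adjusted p = 0.00462) and Car8 (-3.29, adjusted p = 0.039) on the endothelial side and Car11 (1.91, adjusted p = 0.0146) on the fibroblast side, while Car13 (2.76, adjusted p = 0.0923) did not pass. The Rbp4 call was lost without the endothelial sham array (adjusted p = 0.055), and that of Car8 without either endothelial array (0.147 and 0.0712) and on other probe sets (0.123). Among 13 other capillary genes 9 were higher in endothelial cells, with a median of -5.73 beside 0.22 over all genes tested and -5.46 over the 10 genes. Cd300lg (-6.90), Emcn (-6.71), Btnl9 (-6.54) and Timp4 (-6.48) had the largest differences, and Timp4 did not pass without the endothelial sham array (adjusted p = 0.0818). Of 12 detected genes of larger vessels 7 were higher in endothelial cells and 1, Vcam1 (2.16, limma adjusted p = 0.0303), in fibroblasts, with a median of -2.12.

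Genes with the most similar profile over the 6 arrays were sought for each gene, by the root mean square distance of log2 levels centred on each gene's own mean. The nearest to Gpihbp1 was the endothelial cadherin gene Cdh5, at a distance of 0.13. Nearest to Rbp7 was Ramp3 (0.09), to Cd36 the gene Mmrn2 (0.20), to Car4 the gene Myct1 (0.29), to Aqp1 the gene Thrsp (0.17) and to Aqp7 the gene St8sia4 (0.42). The nearest profile to Fabp4 was that of Lipe, the hormone-sensitive lipase gene, at 0.07. Nearest to Fabp5 was Elk3 (0.11), to Fabp3 the gene Tmem245 (0.14) and to Lpl the kinase gene Pink1 (0.04). These likenesses rest on 6 arrays that share the split by cell type, and carry no test.

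The second comparison asks what 1 week of pressure overload did to the levels in each population. In endothelial cells all 10 genes were lower on the TAC array than on the sham array, where 36.9% of 11157 detected genes lay below 0 and 63.1% above, and 3 were at least 2-fold lower, against 1.83% of genes lower and 10.9% higher: Aqp7 (2.29-fold), Fabp3 (2.19-fold) and Car4 (2.08-fold). Aqp1 was 1.73-fold lower and Lpl 1.52-fold lower. These are readings of the brightest probe sets, and the second probe sets gave 0.64 for Fabp5 and -0.08 for Fabp3. With 1 array per group no difference of this comparison was tested.

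**Figure D3:**
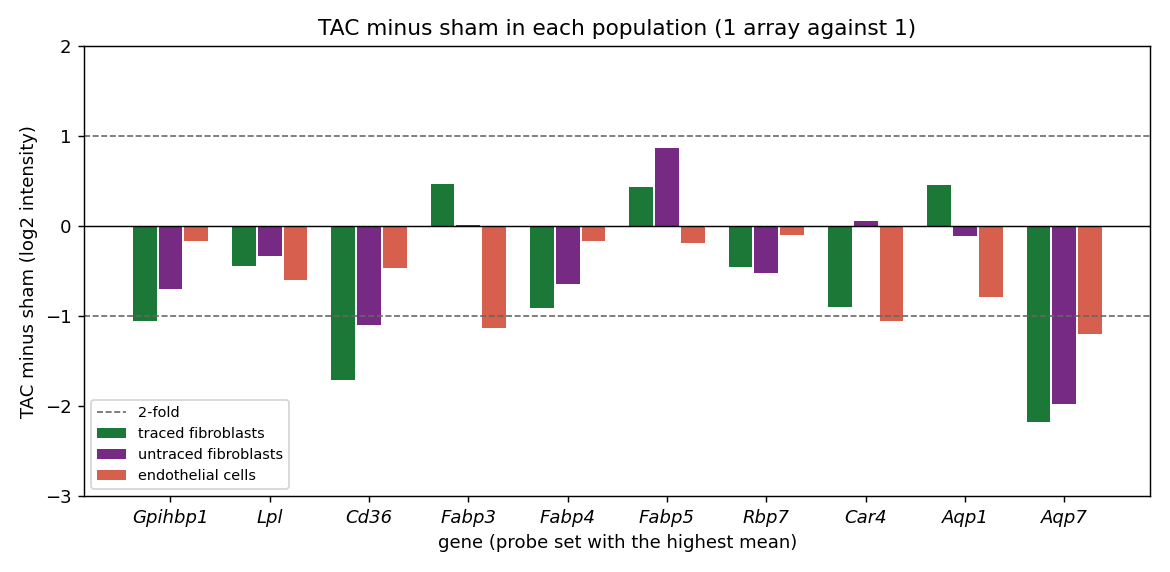
TAC minus sham difference of the 10 genes in each population (y axis, log2 intensity of the probe set with the highest mean). Each bar is 1 array minus 1 array, so there are no error bars, and dashed lines mark 2-fold. All 10 endothelial bars point down, to -1.19 for Aqp7, and the Fabp5 bars of both fibroblast populations point up, to 0.43 and 0.86.

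On the endothelial arrays the 10 genes divided by how they stood to the endothelial markers. The 12 endothelial markers had a median difference of -0.23 and a range of -0.40 to 0.22. Gpihbp1 (-0.16), Fabp4 (-0.17), Fabp5 (-0.19) and Rbp7 (-0.10) lay within that range, although the 4 Fabp4 probe sets ran from -0.17 to -0.54, the lowest below all 12 markers. Cd36 (-0.47), Lpl (-0.60), Aqp1 (-0.79), Car4 (-1.06), Fabp3 (-1.13) and Aqp7 (-1.19) lay below every one of the 12 markers. Of all genes detected on these arrays 11.5% were at least as low as Cd36. Relative to the marker median, Aqp7 stood at -0.96, Fabp3 at -0.90, Car4 at -0.83 and Aqp1 at -0.56, so that none of the 10 reached 2-fold on that scale. The median over the 10 genes was -0.54, beside 0.18 over all detected genes.

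Aqp7, Car4 and Cd36 were lower after TAC on every probe set: -1.19 and -1.14 for Aqp7, -1.06 and -1.36 for Car4, and -0.47, -0.54 and -0.99 for Cd36. For Fabp3 the second, flat probe set gave -0.08. The probe sets of Fabp5 differed in direction, with -0.19 on the brighter and 0.64 on the other, so no direction can be given for Fabp5 in endothelial cells. Of the 20 probe sets 19 were below 0 and 5 at least 2-fold lower, but these are repeated readings of the 10 genes. The shares over all probe sets were not counted. Of all detected genes, each on its brightest probe set, 36.9% were below 0 and 1.83% at least 2-fold lower.

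Other cell types moved along with these differences. Of 9 heart muscle markers detected on the endothelial arrays 6 were at least 2-fold lower after TAC and all 9 were below 0, with a median of -1.12, and their summed intensity went from 13.72 to 12.62 on the log2 scale. Fabp3, Cd36 and Lpl are also expressed by heart muscle cells. The fibroblast markers were higher on the endothelial TAC array, with differences of 1.10 to 5.55. Of 9 mural markers 7 were below 0 (median -0.65), and the macrophage markers had a median of 0.77. The part of these cells in the values of the 10 genes was not tested. Capillary and large-vessel lists overlapped in range on these arrays, and their difference was not tested. The 13 other capillary genes had a median of -0.35, with Timp4 at -2.08, Cd300lg at -0.94, Rgcc at -0.82 and Plvap at 3.57 in the other direction, and the 12 genes of larger vessels a median of 0.42, from -0.59 to 4.68, with the adhesion receptor genes Sele (4.68) and Selp (2.63) highest.

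**Figure D4:**
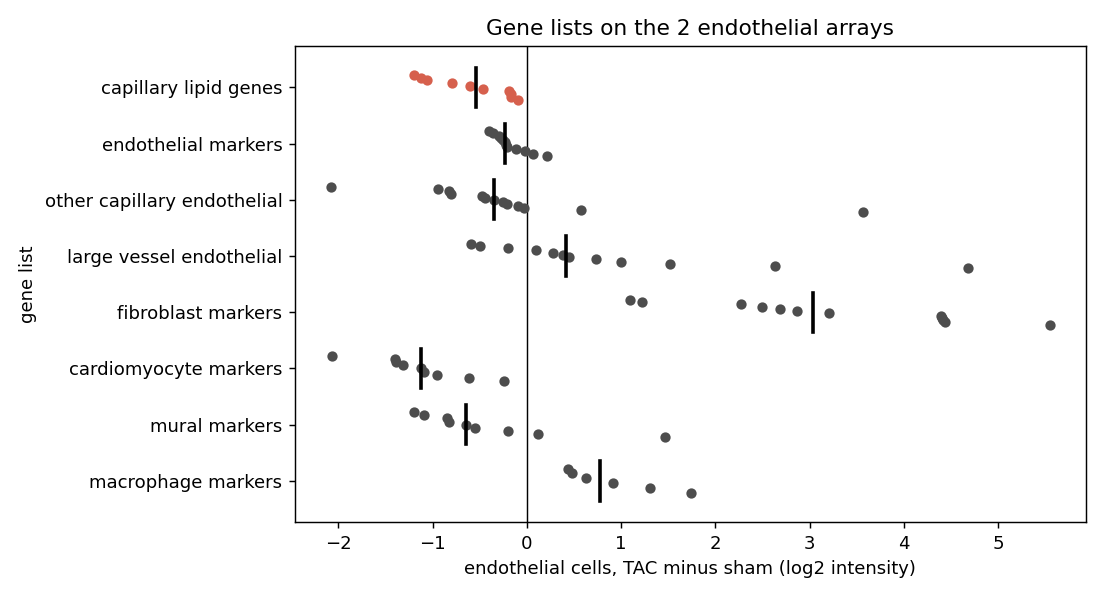
TAC minus sham differences on the 2 endothelial arrays for the 10 genes and 7 marker lists (x axis, log2 intensity). Each point is 1 gene detected on these arrays and vertical bars are list medians. The 10 genes spread from -1.19 to -0.10, the endothelial markers from -0.40 to 0.22, the fibroblast markers lie at 1.10 and above, and the heart muscle markers lie below 0.

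In fibroblasts the pattern was mixed. Car4 and Aqp7 lay below the array median on all 4 fibroblast arrays and are left out of the counts over detected genes. Of the other 8 genes 5 were lower after TAC in traced and 6 in untraced fibroblasts, against 40.8% and 47.9% of detected genes, and 3 and 2 were higher, against 59.2% and 52.1%. Both populations were lower for 5 of the 8, against 32.7% of genes. Over all 6 arrays the 10 genes all counted as detected, but Car4 and Aqp7 did so through the endothelial arrays alone. Of the 10 genes 6, the dim Aqp7 among them, were lower in all 3 populations, against 18%. None was higher in all 3, against 33.9%. At least 2-fold lower were Cd36 (-1.71) and Gpihbp1 (-1.06) in traced fibroblasts, against 2.64% of genes, and Cd36 (-1.10) in untraced fibroblasts, against 2.98%. Cd36 was the 1 gene of the 8 at least 2-fold lower in both, against 1.79% of genes, and none was at least 2-fold higher in both, against 4.33%. Aqp7, at dim levels, differed by -2.18 and -1.98, and its second probe set gave -0.85 and -0.33. The Cd36 difference was similar on all 3 of its probe sets, -1.55 to -1.85 in traced and -0.93 to -1.10 in untraced fibroblasts. In untraced fibroblasts 2 of those 3 probe sets were therefore short of 2-fold, and no gene of the 10 reached 2-fold there with log2(intensity + 32).

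Fabp4 differed by -0.91 in traced and -0.64 in untraced fibroblasts, and Gpihbp1 by -0.70 in untraced fibroblasts. Of the 4 Fabp4 probe sets 1 gave 0.20 in traced fibroblasts, at levels below the array median. Rbp7 differed by -0.46 and -0.52 and Lpl by -0.45 and -0.33, with -0.74 and -0.76 on the second Lpl probe set. Of 9 endothelial markers detected there 8 were also below 0 in each population, with medians of -0.71 in traced and -0.39 in untraced fibroblasts and Pecam1 at -1.22 and -0.78. The exception was Erg, an endothelial transcription factor gene, at 1.79 and 1.62. The part of endothelial RNA in the fibroblast samples was not tested.

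Fabp5 was higher in both fibroblast populations after TAC, by 0.43 in traced and 0.86 in untraced fibroblasts, and its second probe set gave 0.66 and 0.70. Both probe sets thus placed both TAC arrays above both sham arrays, with levels of 12.01 and 12.16 after TAC against 11.58 and 11.30 at sham on the brighter. Differences above 0 in both populations were seen in 44% of detected genes, and 19.9% and 6.29% of detected genes were at least as far above 0 as Fabp5 in traced and untraced fibroblasts. Fabp3 differed by 0.47 and 0.02, Aqp1 by 0.45 and -0.11 and Car4 by -0.89 and 0.05 in traced and untraced fibroblasts, without a shared size.

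Partner genes also differed with surgery. Angptl4, whose product inhibits lipoprotein lipase, was higher after TAC in all 3 populations, by 1.09 in traced fibroblasts, 1.41 in untraced fibroblasts and 1.75 in endothelial cells, at 2-fold or more in each. It stood at 9.67 and 9.69 on the fibroblast sham arrays, 10.76 and 11.10 on the fibroblast TAC arrays, and 8.90 and 10.65 on the endothelial sham and TAC arrays. At least 2-fold higher genes made up 6.01%, 5.04% and 10.9% of detected genes in these populations. Lrp1 (2.02) and Sdc4 (2.01), both higher in fibroblasts than in endothelial cells, were the other lipase partners at least 2-fold higher on the endothelial TAC array, along with the fibroblast markers.

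In fibroblasts Apoe (-1.52 and -2.60) was lower after TAC and Scarb1 higher (1.41 and 0.90). Vldlr, which encodes a triglyceride-rich lipoprotein receptor, differed by -1.12 and -0.94. Mfsd2a, a lysophospholipid transporter gene, was higher (1.48 and 1.53), as was the fatty acid transporter gene Slc27a3 (1.03 and 0.99, and 1.40 in endothelial cells). Meox2 was higher in both fibroblast populations (1.24 and 1.22) and lower in endothelial cells (-0.67), and Tcf15 was lower in all 3 (-1.04, -0.84 and -0.55). Pparg differed by -0.57 and -0.69 in fibroblasts and by -0.09 in endothelial cells. The lipase inhibitor gene G0s2 (-1.58 and -1.74) and Pdk4, a kinase gene that spares glucose when fat is burned (-1.29 and -1.66), were lower in fibroblasts after TAC. In endothelial cells Acadl, a gene of fatty acid oxidation, differed by 1.06 and Pnpla2 by -0.95.

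The endothelial difference lay below the mean fibroblast difference for 5 of the 10 genes, against 38.3% of genes: Fabp3 (-1.37 between the responses), Aqp1 (-0.96), Fabp5 (-0.83), Car4 (-0.64) and Lpl (-0.21). It lay above for Cd36 (0.93), Aqp7 (0.89), Gpihbp1 (0.71), Fabp4 (0.61) and Rbp7 (0.39). On their other probe sets the values were near 0 for Fabp3 (-0.03) and Fabp5 (-0.04). The order turned on other probe sets for Aqp7 (-0.54) and Fabp4 (-0.04), and with the mean of all probe sets for Lpl (0.03). With log2(intensity + 32) it also turned for Aqp7 (-0.23). With 1 array per group the responses were not tested against each other.

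The third comparison asks whether Tie2-Cre tracing separates fibroblasts by these genes. None of the 10 genes differed at least 2-fold at both surgeries, but only 0.0344% of 11623 detected genes did so in each direction, and a count of 0 says nothing particular about these genes. The traced minus untraced differences ran from -0.97 for Car4 after TAC to 0.53 for Aqp1 after TAC. Gpihbp1 was lower in traced fibroblasts at both surgeries (-0.34 and -0.70), as were Rbp7 (-0.29 and -0.22), Aqp7 (-0.39 and -0.59), Fabp4 (-0.07 and -0.34) and Car4 (-0.03 and -0.97). Aqp7 and Car4 lay below the array median on every fibroblast array, and at sham the Fabp4 probe sets ran from -1.25 to 0.12. Of the 8 genes detected in fibroblasts 3 were thus below 0 at both surgeries, against 47.3% of detected genes. The endothelial markers had median lineage differences of 0.02 at sham and -0.42 after TAC, beside -0.11 and -0.07 over all detected genes. At sham Fabp4 and Car4 were thus not below the median of all genes.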

How the data were processed

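RNA of 6 sorted cell samples (200 ng each, per the labels' protocols) was measured on Affymetrix mouse arrays, 1 array per group. Each deposited value is an intensity per probe set, on a linear scale judging by its range. RMA is listed in the submitters' processing notes; it corrects background, equalises the arrays and combines the probes of a set. Its version is not given in the sources used here. Log2 was taken of the deposited intensities, with no further normalization. Gene names came from the platform's annotation and were brought up to date through gene identifiers (99.4% matched). Of the probe sets, 34958 of 45101 had 1 symbol, 932 several and 9211 none listed.

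Limma 3.58.1 in R 4.3.3 compared fibroblasts with endothelial cells and was tested on simulated data. It called 31 of 50 genes with a true log2 difference of 1, all 50 at each of 2, 4 and 6, and 0 of 12057 unchanged genes. The simulated noise came from the fibroblast difference between surgeries alone and was equal for all genes. It therefore does not show how the test fares with the spread of the endothelial arrays. RMA compresses differences among dim probe sets and makes no detection call, so detected means above the array median on at least 1 array compared. The number of arrays limits the precision. Named genes were the 10 members, up to 4 genes with the largest difference per list, defining markers and nearest profiles. Angptl8, Cebpa, Vcam1, Erg and the surgery differences of Pparg were added after their values were seen. The members and all 17 gene lists were chosen with earlier results of these data known. Genes without a probe set of 1 symbol were not analysed here.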

Additional observations from a re-analysis of the deposited data

Results flagged for a closer look

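Fabp3 and Fabp5 were picked out because both fibroblast populations lay on 1 side of 0 after TAC and the endothelial cells on the other. This opposition was not tested. For Fabp3 the TAC minus sham differences were 0.47 in traced fibroblasts, 0.0155 in untraced fibroblasts and -1.13 in endothelial cells. For Fabp5 they were 0.43, 0.86 and -0.19 in the same order, and its second probe set gave 0.64 in endothelial cells. The second Fabp3 probe set gave 0.21, -0.31 and -0.08. Of all 12257 detected genes 8.81% showed the same opposition. The reverse, with both fibroblast populations below 0 and endothelial cells above, was shown by 15.2% and would also have been picked out. Being picked out by this rule therefore says nothing particular about these genes.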

How the results depend on the processing

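The count of 8 genes higher in endothelial cells was also 8 with other probe set rules, filters and scalings, and 9 with surgery as a block or without averaging. Leaving out each array in turn gave 7 to 9. Over all genes, 2298 were higher in fibroblasts with surgery as a block and 2211 without averaging, against 1415, and leaving out each array gave 685 to 1715 there and 472 to 817 on the endothelial side, against 797, the lowest of each without the endothelial sham array. Counting the dim Aqp7, the untraced fibroblasts had 2 genes at least 2-fold lower after TAC, 1 with the mean of all probe sets, and 0 without suffixed probe sets or with log2(intensity + 32). That scale left 1 in traced fibroblasts, against 3. Centring the endothelial arrays on the 12 endothelial markers, chosen after seeing the data, left 0 genes at least 2-fold lower and 6 below 0. The share of all genes on that scale was not counted. Requiring genes to lie above the upper quartile of an array left 161 lower and 300 higher genes in traced fibroblasts, 214 and 269 in untraced fibroblasts, and 132 and 618 in endothelial cells, since fewer genes were counted. Differences under 2-fold changed sign in endothelial cells for Fabp5 (0.64 on its other probe set, 0.23 with the mean), in traced fibroblasts for Fabp4 (0.20 on another probe set) and in untraced fibroblasts for Fabp3 (-0.14) and Car4 (-0.14) with the mean. The endothelial minus fibroblast response changed sign for Aqp7, Fabp4 and Lpl. Where no cause is named, the cause was not tested. The surgery block ties the fibroblast and endothelial values of a surgery, which the labels do not say came from the same hearts. The fit without averaging counts traced and untraced arrays of a surgery as independent, although they may share hearts. Arrays could not be paired by heart, since the labels do not say which arrays share hearts and every replicate number is 1.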
